A study of Arabidopsis with 14 samples.

Results

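The NaCl response of Arabidopsis seedlings labelled AtC3H3 OX was examined in 4 mRNA-Seq libraries, 2 of seedlings treated with NaCl and 2 of untreated seedlings, out of the 14 libraries of the series. The genes were those with at least 1 FPKM (fragments scaled to transcript length and to the mapped reads of the library) in at least 2 of these 4 libraries, which left 19976 of the 37980 genes listed. AtC3H3 encodes a CCCH zinc-finger protein of the non-tandem group, a kind of protein that binds RNA, and the study asked what its overexpression changes under salt stress. All groups were whole seedlings in the Col-0 background, 10 days old and grown with 8 h of light and 16 h of dark on medium with sucrose. In the treated group, seedlings of the line were laid on filter paper soaked in medium with 150 mM NaCl, and RNA from 1, 2 and 4 h was combined into each library. The protocol names a harvest at 0 h, and no transfer of the control to filter paper without NaCl is described, so that salt, handling and time of day cannot be told apart. By the study's methods, the line carries the AtC3H3 open reading frame with a hemagglutinin tag behind a modified CaMV 35S promoter. This promoter is active in most tissues. The labels do not say which transgenic line was sequenced. The response was compared with that of wild type (WT), with 2 NaCl libraries and 2 sets of 2 untreated libraries, and with that of a line labelled AtC3H26 OX (AtC3H26 is the paralog of AtC3H3), with 2 NaCl and 2 untreated libraries.

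Salt reaches a plant both as a lack of water and as toxic sodium. Within hours the hormone abscisic acid (ABA) accumulates, its receptors then bind and block the clade A PP2C phosphatases, and the SnRK2 kinases that these had held inactive phosphorylate bZIP factors such as ABF3. These factors, and the DREB2 factors that act independently of ABA, switch on genes for LEA proteins and dehydrins, which protect proteins and membranes in drying cells. Proline and the raffinose sugars accumulate as osmolytes, sodium is exported or stored in vacuoles, and growth slows.

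The gene that names the line was examined first. AtC3H3 (AT1G04990, chromosome 1) stood at 4.2 and 4.86 FPKM without and at 14.8 and 13.5 FPKM with the treatment, a rise of 1.46 on the log2 scale (standard error 0.10, adjusted p = 6.9e-05). All fold changes are differences of log2(FPKM + 1), and p is from limma with Benjamini-Hochberg adjustment over all genes tested. In WT the gene had 5.37 to 6.46 FPKM untreated and 20.7 and 23 FPKM with NaCl, so that the line was below WT in both conditions, with no overlap of libraries. These values show no overexpression of AtC3H3 in the line, although the study selected its overexpressing lines by qRT-PCR and semi-qRT-PCR. The study also measured AtC3H3 by qRT-PCR in WT and overexpressing seedlings over hours of NaCl treatment. FPKM does not tell the transcript of the transgene from that of the gene itself. Why the level was below WT was not tested. The groups are therefore called the libraries labelled AtC3H3 OX. The paralog AtC3H26 rose as well, from 3.46 and 3.05 FPKM to 7.44 and 8.23 FPKM, a log2 fold change of 1.05.

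Across the 4 libraries, FPKM summed to 672979 and 689301 in the controls and to 725473 and 729899 with NaCl. The depth relative to replicate 1 with NaCl was 0.94 in the other NaCl library and 1.079 and 1.32 in the controls, and the absolute number of fragments is not known from these values. Between replicates, the spread of the log2 difference at 20 to 40 FPKM was 0.083 in the controls and 0.096 with NaCl. The methods call the 2 libraries of a group biological replicates, nothing says whether they came from separate plates or sowings, and the p-values measure only the spread between these libraries. The 4 seed storage markers were at or near 0, with at most 0.167 FPKM in any of the 4 libraries, and the flower markers AP1, AP3 and AG had at most 0.154 FPKM. The other flower markers were present. SEP3, a MADS factor of floral organs, had 5.28 and 5.09 FPKM in the controls and 2.11 and 1.12 FPKM with NaCl (log2 fold change -1.27, adjusted p = 0.0022, limma). PI stood at 15.4 to 18.2 FPKM, and it is in the study's list of genes higher in AtC3H3 OX than in WT with NaCl. The 5 leaf markers summed to 22615 and 22602 FPKM in the controls and to 23089 and 23508 FPKM with NaCl, and the 6 root markers to 1353 and 1367 FPKM and to 1528 and 1465 FPKM. None of these 11 leaf and root markers changed more than 2-fold, although 1 leaf and 2 root markers rose and 4 leaf and 3 root markers fell at an adjusted p under 0.05. With quantile normalization no leaf and 1 root marker were higher, and 3 leaf and 3 root markers lower. In whole seedlings, fewer cells of a type and less RNA per cell cannot be told apart.

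The response reached most of the genes. At an adjusted p under 0.05, 6275 genes (31.4% of those tested) were higher with NaCl and 5974 genes (29.9%) were lower. Of these, 1747 higher genes (8.75%) and 888 lower genes (4.45%) changed more than 2-fold. The median log2 fold change over all genes was 0.00. In 82.3% of the genes the 2 NaCl libraries lay both above or both below the 2 controls. With 2 libraries in each group, many unchanged genes would separate in this way too, so this is not the share that responded. Calls became more frequent with the level of the gene, from 37.2% of the genes with a mean under 2 FPKM to 84.7% of those with at least 100 FPKM, and the median standard error fell from 0.162 to 0.033 over the same range. Because so many genes are called at all, the lists are read by their calls of more than 2-fold and by their median as well. Every count of calls in the lists below is to be read beside the shares over all genes, 31.4% higher and 29.9% lower. For counts of more than 2-fold these shares are 8.75% and 4.45%. They are not repeated at each count.

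**Figure D1:**
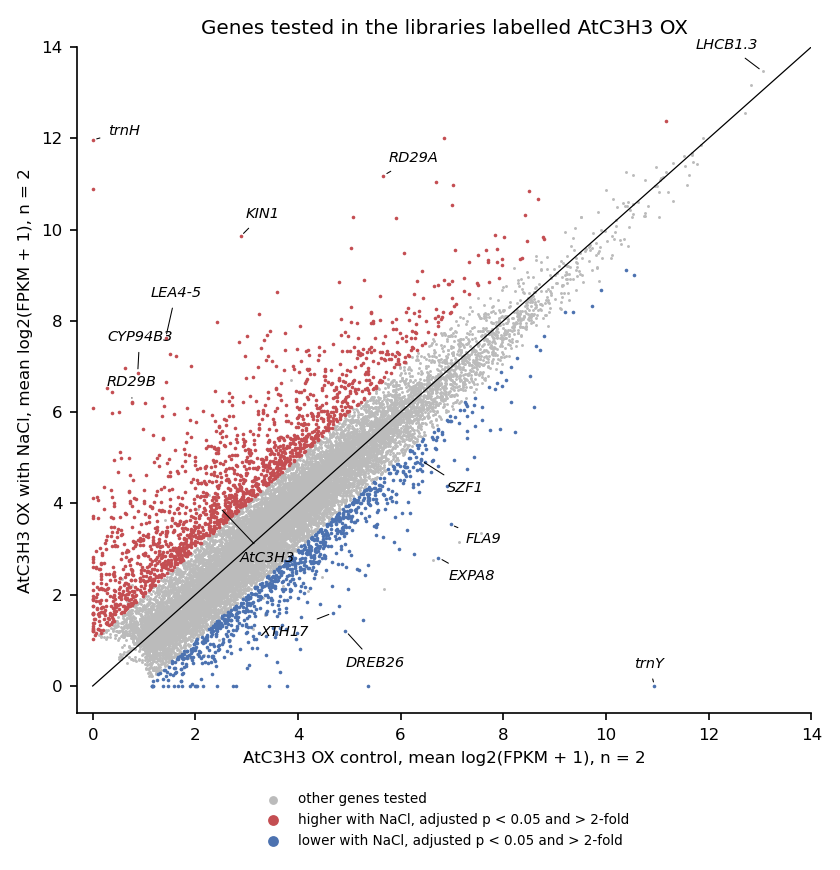
Mean log2(FPKM + 1) of each gene tested in the 2 NaCl libraries (vertical axis) against the 2 control libraries (horizontal axis) labelled AtC3H3 OX; the line marks equal values. The 1747 genes called higher and more than 2-fold (red) lie above the line, up to KIN1 and RD29A, and the 888 called lower (blue) lie below it, down to EXPA8 and DREB26; trnH and trnY are listed at 0 in one group.

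The 12 genes with the largest rises included members of the dehydration and jasmonate responses. The largest rise of a gene above 0 in all 4 libraries was that of KIN1, a gene induced by cold and ABA. KIN1 (AT5G15960, chromosome 5) had 7.35 and 5.5 FPKM in the controls and 884 and 963 FPKM with NaCl, a rise of 6.97 on the log2 scale (standard error 0.12, adjusted p = 6.4e-07, limma). LEA4-5, a LEA protein, went from 2.08 and 1.33 FPKM to 191 and 202 FPKM (log2 fold change 6.20). CYP94B3, which hydroxylates and so inactivates the jasmonate hormone, went from 0.885 and 0.789 FPKM to 112 and 118 FPKM (5.98). ABR1, an AP2/ERF factor known as a repressor of ABA responses, went from 0.232 and 0.351 FPKM to 64.5 and 60.3 FPKM (5.62). In each of these genes the 2 groups lay far apart and the replicates close together. Among genes without a name, AT1G51090 rose by 6.35, AT2G38240 by 6.25, AT3G02480 by 5.77 and AT4G33467 by 5.61 on the log2 scale. The pseudogene AT1G69140, which is transcribed, had 0.419 and 0.173 FPKM in the controls and 86.9 and 85.1 FPKM with NaCl. The remaining 3 of the 12 were rows for organelle RNAs listed at 0 in both controls, which are described with the RNA classes.

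Every gene tested of the dehydration and LEA list rose more than 2-fold, 18 of 18, with a median log2 fold change of 4.53 against 0.00 over all genes. RD29A, a marker of osmotic stress used in the qRT-PCR of the study, had 49.5 and 49.7 FPKM in the controls and 2321 and 2322 FPKM with NaCl (log2 fold change 5.52, standard error 0.02, adjusted p = 1.3e-08, limma). RD29B, its neighbour with a stronger dependence on ABA, had 0.653 and 0.753 FPKM in the controls and 72.5 and 74 FPKM with NaCl (5.45). The dehydrins COR47, ERD10 and LTI30, already at 57 to 130 FPKM in the controls, reached 1187 to 2169 FPKM. COR15A, which protects chloroplast membranes, went from 34.8 and 30.3 FPKM to 1234 and 1249 FPKM, and its copy COR15B from 8.7 and 8.31 FPKM to 284 and 281 FPKM. KIN2 reached the highest level of the list, 3818 and 4395 FPKM from 113 and 116 FPKM. KIN1 and KIN2, like COR15A and COR15B, are similar in sequence, and how the counting split reads between them is not stated. The smallest rises were those of the dehydrin XERO1 (1.37), the seed gene EM6 (1.69) and RD22 (1.69), and EM6 and XERO1 stayed under 4 FPKM. EM1 did not pass the filter. RAB18, a dehydrin of the same list, could not be matched, because 2 genes share this name. One row listed as RAB18 had 25.2 and 24 FPKM in the controls and 172 and 188 FPKM with NaCl, and the other had 44.3 and 48 FPKM and 89.2 and 92.9 FPKM. Of the other genes of the qRT-PCR, RD22 went from 235 and 232 FPKM to 740 and 774 FPKM. The reference gene GAPC1 had 421 and 423 FPKM in the controls and 400 and 408 FPKM with NaCl (log2 fold change -0.06, adjusted p = 0.068, limma). With quantile normalization GAPC1 was called lower.

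**Figure D2:**
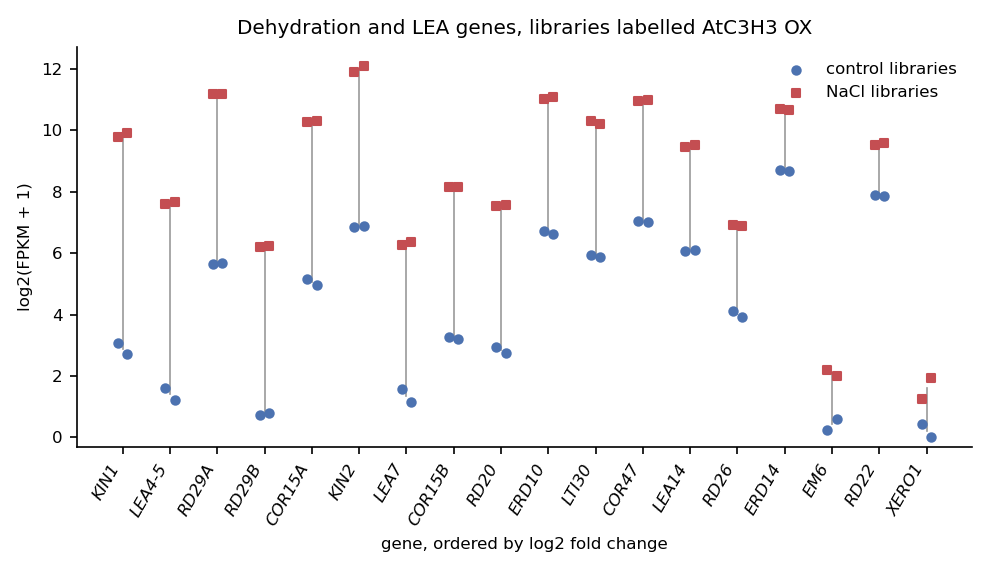
Level of the 18 dehydration and LEA genes tested, as log2(FPKM + 1), in each control library (circles) and each NaCl library (squares) labelled AtC3H3 OX; vertical lines join the group means. In all 18 genes both NaCl libraries lie above both controls, from KIN1 (log2 fold change 6.97) at the left to XERO1 (1.37) at the right.

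Most enzymes of ABA synthesis and breakdown rose. Of 10 genes tested, 7 were higher and 2 lower, beside 31.4% and 29.9% over all genes. Their median log2 fold change was 0.73. NCED3, which makes the first committed step of stress-induced ABA synthesis, had 4.89 and 3.71 FPKM in the controls and 33.9 and 32.5 FPKM with NaCl (log2 fold change 2.70). AAO3, the oxidase of the last step, rose by 1.34. CYP707A1, an ABA hydroxylase that starts its breakdown, rose more than NCED3, from 2.79 and 2.25 FPKM to 39.9 and 39.7 FPKM (3.54). Its relative CYP707A2 moved the other way, from 15.9 and 16 FPKM to 7.08 and 6.44 FPKM. NCED2, NCED5 and NCED9 were under 0.3 FPKM in all 4 libraries.

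At the receptors and phosphatases the directions separated. Of 9 PYR/PYL receptor genes tested, 6 fell and 2 rose, beside 29.9% lower and 31.4% higher over all genes. Their median log2 fold change was -0.53. PYL4 fell from 56 and 61.1 FPKM to 12 and 12.1 FPKM (log2 fold change -2.19, adjusted p = 2.5e-06, limma), and PYL6 and PYL1 had log2 fold changes of -1.19 and -0.92. PYL7 rose instead, from 7.49 and 7.32 FPKM to 32.8 and 32.2 FPKM, and PYL9 rose by 0.96. PYL8 had 50.2 and 52.5 FPKM in the controls and 60.4 and 52.2 FPKM with NaCl, with overlapping groups, and was called only without NaCl replicate 2 (adjusted p = 0.013, limma). All 8 clade A PP2C genes tested rose, 7 of them more than 2-fold, with a median of 2.10. HAI1 went from 2.28 and 1.73 FPKM to 58.8 and 62.9 FPKM (4.37), HAI2 rose by 3.17, and the highest in level were ABI1, at 225 and 228 FPKM, and PP2CA, at 112 and 107 FPKM. AHG1, known from seeds, did not pass the filter. All 8 genes of the kinases and bZIP factors rose, 4 of them more than 2-fold. The SnRK2 kinases had the smallest changes, 0.23 for SNRK2.3 (adjusted p = 0.048, limma, and 0.16 and 0.21 without NaCl replicate 2 and control replicate 1), 0.48 for SNRK2.6 and 0.58 for SNRK2.2, and the factors ABF3 (1.99), ABI5 (1.88) and ABF1 (1.72) the largest.

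All 9 CBF and DREB2 factors rose more than 2-fold, with a median of 2.60. DREB2A had 4.84 and 5.22 FPKM in the controls and 55.2 and 48.4 FPKM with NaCl (log2 fold change 3.13, standard error 0.08, adjusted p = 2.2e-06, limma). DREB2C went from 0.914 and 0.443 FPKM to 25 and 22.6 FPKM, and DDF1, a DREB factor that acts on gibberellin breakdown, from 0.101 and 0.0415 FPKM to 15.3 and 16.4 FPKM. DDF2 was listed at 0 in both controls and had 6.02 and 6.27 FPKM with NaCl. DREB2B, one of the qRT-PCR genes, stayed low, at 0.314 and 0.143 FPKM and at 3.58 and 3.25 FPKM. The neighbouring CBF1, CBF2 and CBF3, which drive the cold response, rose by 2.32, 1.85 and 2.60 and are similar in sequence.

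Of 11 C2H2 zinc-finger repressors, 8 rose, 5 of them more than 2-fold, and 2 fell, beside 31.4% higher and 29.9% lower over all genes. ZAT6 went from 8.47 and 8.15 FPKM to 121 and 131 FPKM (log2 fold change 3.77), and AZF2 rose by 1.93. ZAT10, also known as STZ, had a high level in the controls already, 35 and 33.3 FPKM, and 52.8 and 55.8 FPKM with NaCl (0.65). ZAT7 fell by 1.23 and ZAT5 by 0.91 on the log2 scale. Of 14 heat shock factors, 8 rose and HSFA7A fell. HSFA6B, a factor known from the ABA response, went from 0.38 and 0.423 FPKM to 25.1 and 24.4 FPKM (4.20), and HSFB1 from 14.1 and 15.2 FPKM to 73.9 and 79.4 FPKM. HSFA2, a factor of heat memory, rose by 1.08 but stayed at or under 3.48 FPKM.

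Of 9 CCCH zinc-finger genes tested, which include AtC3H3 and AtC3H26, 6 rose and 3 fell, beside 31.4% and 29.9% over all genes. SOM had the largest rise (1.60) and AtC3H3 the next (1.46), and the median of the list was 0.54. SZF1, a tandem CCCH gene named for its induction by salt, fell from 83.4 and 82.9 FPKM to 30.7 and 28.9 FPKM (log2 fold change -1.45, standard error 0.05, adjusted p = 4.2e-06, limma). Its relative SZF2 rose from 34.7 and 36.9 FPKM to 52.4 and 52.7 FPKM (0.54). TZF5 and TZF1 had log2 fold changes of -0.90 and -0.43.

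Jasmonate genes moved as a block. All 19 genes of jasmonate synthesis and of the JAZ repressors rose more than 2-fold, with a median of 2.15. LOX3, a lipoxygenase of the first step, went from 4.81 and 4.7 FPKM to 72.8 and 76.9 FPKM (log2 fold change 3.72), and AOC1, a cyclase of the pathway with close copies AOC2 and AOC3, from 20.5 and 19.9 FPKM to 174 and 170 FPKM (3.03). JAR1, which joins jasmonate to isoleucine and so makes the active hormone, rose from 27.4 and 28.2 FPKM to 158 and 163 FPKM (2.49). Among the repressors JAZ1 rose most, from 21.6 and 22.1 FPKM to 162 and 160 FPKM (2.83), and JAZ6 least (1.10).

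Ethylene and gibberellin genes were mixed, and over all genes 31.4% were higher and 29.9% lower. Of 9 ethylene synthesis genes tested, 5 rose and 2 fell. ACS2, an ACC synthase, went from 0.37 and 0.237 FPKM to 9.08 and 9.67 FPKM (log2 fold change 2.99), whereas ACS6 had 30.1 and 29.2 FPKM in the controls and 38.8 and 35.9 FPKM with NaCl (0.32). ACS4 and ACS11 each had a log2 fold change of -0.88. Of 14 gibberellin genes, 6 rose and 5 fell, and the 4 rises over 2-fold were those of 3 gibberellin-inactivating oxidases and of the DELLA repressor RGL3. GA2OX6 went from 5.16 and 5.98 FPKM to 82.1 and 78.1 FPKM (3.63), GA2OX7 went from 0.189 and 0.232 FPKM to 8.61 and 8.77 FPKM, GA2OX2 rose by 1.98, and RGL3 went from 1.92 and 1.55 FPKM to 9.45 and 9.38 FPKM. The DELLA genes GAI and RGA fell by 0.64 and 0.22, and of the synthesis genes GA20OX2 and GA3OX2 fell by 0.58 and 0.70.

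**Figure D3:**
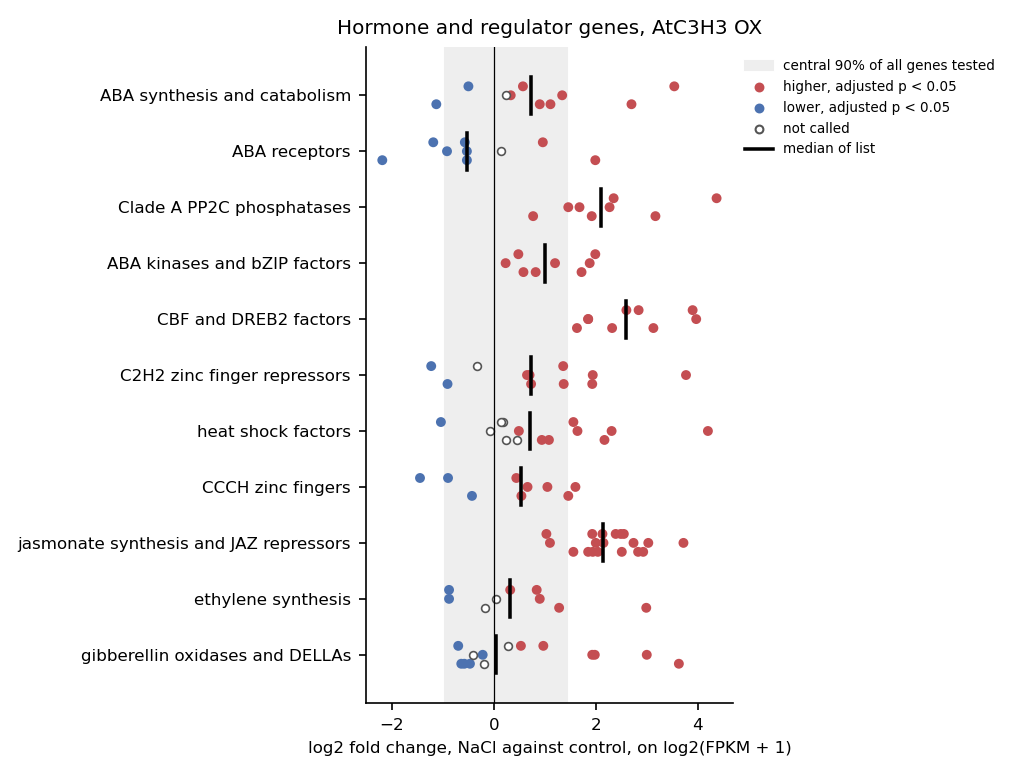
Log2 fold change of NaCl against control (horizontal axis, on log2(FPKM + 1)) for each gene tested of 11 lists of hormone and regulator genes; points are genes, filled where the adjusted p was under 0.05, black bars are list medians, and the grey band holds the central 90% of all genes tested. The clade A PP2C, CBF and DREB2 and jasmonate lists lie wholly above 0, with medians of 2.10, 2.60 and 2.15, and most ABA receptors lie below 0.

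Most osmolyte genes rose. Of 9 proline genes, 7 were higher and 1 was lower, beside 31.4% and 29.9% over all genes. P5CS1, the limiting enzyme of proline synthesis, rose from 131 and 139 FPKM to 332 and 326 FPKM (log2 fold change 1.28), and PROT3, a proline transporter, from 1.24 and 1.31 FPKM to 15.9 and 15 FPKM (2.85). PRODH1, which breaks proline down, fell from 110 and 112 FPKM to 44.4 and 45.3 FPKM (-1.29). The other breakdown genes of the list moved the other way, PRODH2 with a rise of 1.28 and P5CDH with a rise of 0.50. Of 6 galactinol and raffinose genes, 5 rose. GOLS3 and GOLS2, galactinol synthases, went from at most 2.96 FPKM in the controls to between 41.6 and 45.4 FPKM with NaCl. RS2 went from 122 and 124 FPKM to 106 and 107 FPKM (-0.20).

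Sodium and potassium transport genes moved in both directions. Of 11 tested, 5 rose and 4 fell, beside 31.4% and 29.9% over all genes, and their median was -0.16. None changed more than 2-fold, beside 8.75% higher and 4.45% lower over all genes. SOS1, the sodium exporter of the plasma membrane, had 5.11 and 5.08 FPKM in the controls and 7.06 and 6.01 FPKM with NaCl (log2 fold change 0.30, adjusted p = 0.045, limma), a call that was lost without NaCl replicate 1 (0.17), control replicate 1 (0.13) or control replicate 2 (0.14). SOS3, a calcium sensor of the same pathway, rose by 0.99 and NHX1, a vacuolar exchanger, by 0.61. HKT1, which retrieves sodium from the xylem, fell from 1.71 and 1.77 FPKM to 0.712 and 0.663 FPKM.

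Among nitrate genes, 6 of 8 rose and 2 fell, beside 31.4% higher and 29.9% lower over all genes. The nitrate reductases NIA1 and NIA2 went from 120 and 123 FPKM to 442 and 456 FPKM and from 251 and 253 FPKM to 646 and 662 FPKM. The xylem transporters moved apart. NRT1.8, which unloads nitrate from the xylem, rose by 2.33, and NRT1.5, which loads it, fell from 105 and 105 FPKM to 27.3 and 27.1 FPKM (-1.91). Of 9 genes of reactive oxygen, 6 rose and 2 fell, and only CAT1, a catalase, rose more than 2-fold (1.29). Of 9 dark and sugar starvation genes, 7 rose. DIN6, an asparagine synthetase, went from 51.1 and 50.7 FPKM to 201 and 201 FPKM (1.96). Of 14 aliphatic glucosinolate genes, 5 fell and 2 rose, beside 29.9% lower and 31.4% higher over all genes. With quantile normalization 8 fell and 0 rose. MYB28, the main activator of these genes, fell from 23.1 and 25.2 FPKM to 9.08 and 10.7 FPKM (-1.21).

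The 12 genes with the largest falls included 3 cell wall genes. EXPA8, an expansin that loosens walls, fell from 105 and 106 FPKM to 6.24 and 5.82 FPKM (log2 fold change -3.92, standard error 0.05, adjusted p = 3.7e-07, limma). FLA9, a fasciclin-like arabinogalactan protein, fell from 128 and 121 FPKM to 11.4 and 9.89 FPKM (-3.44). XTH17, a xyloglucan endotransglucosylase of the root, fell from 23.1 and 26.1 FPKM to 1.86 and 2.22 FPKM (-3.07). DREB26, an AP2/ERF factor, fell from 28 and 30.8 FPKM to 1.45 and 1.18 FPKM (-3.72). In these 4 genes both NaCl libraries lay far below both controls. RTFL14, a gene of small growth-limiting peptides, fell from 10.3 and 13.1 FPKM to 0.539 and 0 FPKM. APD7 (AT5G02760) and AT1G72910 fell by 3.37 and 3.23 on the log2 scale. The other 5 of the 12 were 4 noncoding RNAs and AT2G07684, which are described with the RNA classes.

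The families of wall and growth genes fell in part, and over all genes 31.4% were higher and 29.9% lower. Of 23 xyloglucan endotransglucosylases tested, 18 fell, 14 of them more than 2-fold, and 3 rose, with a median of -1.27. XTH31 fell from 244 and 243 FPKM to 49.6 and 48.2 FPKM, whereas XTH20 rose by 1.49 and XTH24 by 1.35. Of 21 expansins, 8 fell and 10 rose, and the median was 0.19. EXPA1, high in the controls at 281 and 285 FPKM, fell to 70.2 and 77.1 FPKM, and EXPA16 rose from 0.632 and 0.813 FPKM to 22 and 21.9 FPKM (3.74). EXPA10 and EXPA17 rose by 2.38 and 3.09. Of 32 genes with SAUR names, which mark small auxin-up RNAs, 16 fell, each more than 2-fold, and 6 rose. SAUR63 fell from 21.1 and 19.8 FPKM to 2.28 and 2.68 FPKM, and SAUR34 rose from 0.354 and 0.29 FPKM to 10.6 and 13.1 FPKM. Of 24 cyclins, 11 fell and none rose by limma, with the largest fall in CYCA3;1 (-0.79). At an unadjusted p under 0.05 no cyclin was higher either. Of 13 aquaporins, 7 fell and 3 rose, and only NIP1;2 changed more than 2-fold (1.15). The aquaporin list was drawn by name and lacks several PIP and TIP genes of the family. The names RPS and RPL cover cytosolic and plastid ribosomal proteins and the disease resistance gene RPS4, and these genes are not summarised.

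Clock genes moved with the treatment, and since the harvest hours of the control are not given, their part in the changes of other genes was not tested. Of 18 clock genes, 11 were higher and 4 lower, beside 31.4% and 29.9% over all genes. ELF4 and LUX, of the evening complex, went from 18.2 and 19.8 FPKM to 111 and 115 FPKM (log2 fold change 2.51) and from 6.34 and 6.91 FPKM to 35.2 and 39.4 FPKM (2.33). FKF1 (2.44), PRR5 (2.37) and TOC1 (1.51), of the afternoon and evening, were higher as well. LHY, of the morning, fell from 9.25 and 9.51 FPKM to 2.1 and 1.83 FPKM (-1.81), whereas its partner CCA1 had 21.4 and 22.1 FPKM and 23.6 and 21.9 FPKM, with overlapping groups. Of 20 antenna genes, 10 fell and 5 rose, none more than 2-fold, beside 29.9% lower and 31.4% higher over all genes. With quantile normalization the counts were 13 lower and 1 higher. LHCB2.3 fell from 928 and 933 FPKM to 466 and 466 FPKM, and the LHCB1 genes, which are near copies of each other, included the largest rise, that of LHCB1.4 (0.52).

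**Figure D4:**
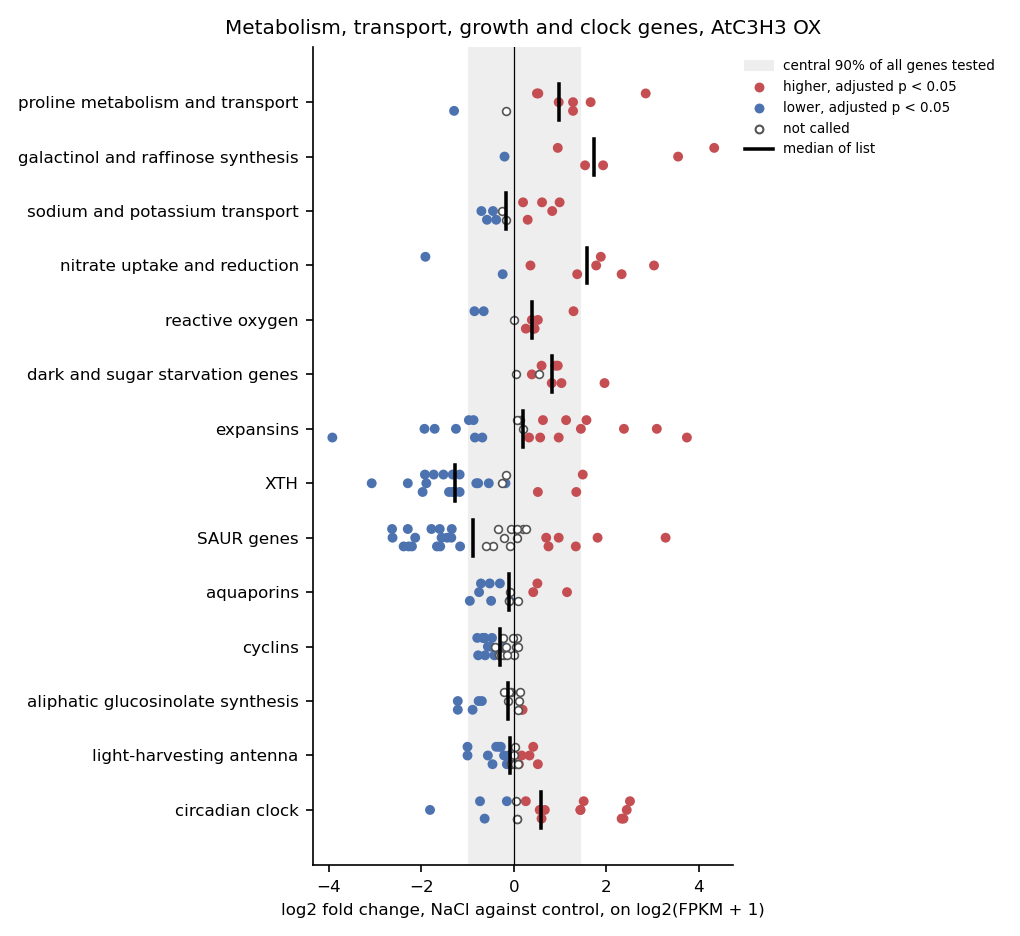
Log2 fold change of NaCl against control (horizontal axis, on log2(FPKM + 1)) for each gene tested of 14 lists of metabolism, transport, growth and clock genes; points, filling, bars and band are drawn as for the regulator lists. Xyloglucan endotransglucosylases (XTH, median -1.27) and SAUR genes (-0.88) lie mostly below 0, galactinol genes (1.74) and nitrate genes (1.57) mostly above.

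Noncoding RNAs were examined by class. Of 692 long noncoding RNA genes, 25.9% were higher and 17.9% lower, against 31.8% and 30.5% of 18453 protein-coding genes. Over 2-fold, 74 of the long noncoding RNA genes were higher and 30 lower, against 1595 and 812 of the protein-coding genes. Calls depended on the level of a gene, the classes were not matched for level, and no test of these differences was made. Of 43 small nucleolar RNAs, 2 were higher and 9 lower, and of 12 small nuclear RNAs, 5 were higher. Several short RNAs switched between 0 and a high value. The plastid tRNA trnH was listed at 0 in both controls and had 4086 and 3900 FPKM with NaCl, and the plastid tRNA trnY had 2128 and 1823 FPKM in the controls and was listed at 0 with NaCl. In other groups replicates differed as much, with 4444 and 0 FPKM of trnH in AtC3H26 OX with NaCl and 2499 and 0 FPKM of trnY in WT set 1. A row listed as trnS was at 0 in both controls and at 786 and 4546 FPKM with NaCl, and one listed as rps12 was at 0 in both controls and at 86.5 and 52.8 FPKM with NaCl. The small nucleolar RNAs AT1G08937 and AT4G06705 were listed at 0 with NaCl, with control values of 18.3 and 8.74 FPKM for the former and 4.39 and 20.6 FPKM for the latter. AT3G00800, annotated as a miscellaneous RNA, fell from 38.6 and 36.5 FPKM to 3.14 and 0.814 FPKM. The protein-coding row AT2G07684 had 40.8 and 39.4 FPKM in the controls and was listed at 0 in all other libraries of the series. With protein-coding genes alone, a choice made after these values were seen, 6097 were higher and 5933 lower.

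The response was then compared with that of WT, by the difference of the 2 log2 fold changes. The result depended on the untreated WT set. With both sets pooled, 8 genes (0.0385%) had a larger and 8 (0.0385%) a smaller response in the libraries labelled AtC3H3 OX, of 20797 tested by limma. In this fit the 4 untreated WT libraries form 1 group, so the spread behind its p-values includes the difference between the sets. Without NaCl replicate 1 or 2 of the line, 0 genes were larger and 2 smaller. Without its control replicate 1 these counts were 2 and 4, and without control replicate 2 they were 2 and 1. Without WT NaCl replicate 1 they were 2 and 1, and without WT NaCl replicate 2 they were 1 and 3. Against set 1 and set 2 each, with the same sign, 202 of 20457 genes (0.987%) had a more positive and 110 (0.538%) a more negative response. Both fits share the libraries of the line and of WT with NaCl. The positive count was 80 and 71 without NaCl replicate 1 and 2 of the line, 55 and 59 without its control replicate 1 and 2, 62 and 48 without WT NaCl replicate 1 and 2, and 97 and 78 without replicate 1 and 2 of set 1. The negative count without the same libraries, in this order, was 41 and 48, 42 and 32, 41 and 26, and 50 and 61.

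Among the 6 largest positive differences called against each set were AT1G69140, AtGGCT2;1, AGP22 and AT3G21460. AGP22, an arabinogalactan peptide, fell less in the line. It went from 5.7 and 7.34 FPKM to 1.78 and 1.29 FPKM there, and from 11.2 to 15 FPKM over the 4 untreated WT libraries to 0.409 and 0.378 FPKM in WT with NaCl. Its differences of the log2 fold change were 1.74 against set 1 (adjusted p = 0.0085, limma) and 1.76 against set 2 (0.0042). AtGGCT2;1, an enzyme of glutathione turnover, had a log2 fold change of 0.07 in the line with overlapping groups (0.29 and called without NaCl replicate 2), and of -1.45 and -2.43 in WT. Its difference against set 1 was not called without control replicate 1 of the line (adjusted p = 0.051, limma). AT3G21460 differed by 1.76 and 1.62. The other 2 were trnS and AT5G13565, a row at 15.9 and 16.6 FPKM in the NaCl libraries of the line and at 0 in its controls and in all WT libraries.

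Among the 6 largest negative differences were ZAT10, AT3G10930, PRODH1 and OXS3. ZAT10 rose by 0.65 in the line and by 1.55 and 4.26 in WT against set 1 and set 2, since its NaCl levels were alike, 52.8 to 56 FPKM, and its untreated levels were 33.3 and 35 FPKM in the line, 18 and 18.9 FPKM in set 1 and 1.89 and 2.06 FPKM in set 2. PRODH1 had log2 fold changes of -1.29 in the line, -0.71 against set 1 and 1.86 against set 2. OXS3, known from oxidative and heavy metal stress, had -1.68, -1.02 and 1.21. AT3G10930 differed by -1.26 and -2.51. Against set 1, AT3G10930 lost its call without NaCl replicate 1 (adjusted p = 0.061, limma), control replicate 1 (0.053) or control replicate 2 (0.076) of the line, WT NaCl replicate 1 (0.081) or 2 (0.074), or replicate 1 of set 1 (0.061). OXS3 lost it without control replicate 1 of the line (0.08), WT NaCl replicate 1 (0.071) or 2 (0.079), or replicate 1 (0.07) or 2 (0.071) of set 1. The other 2 were AT2G07684 and U5.1b, a small nuclear RNA listed at 0 in all 4 libraries of the line and at 105 and 187 FPKM in WT with NaCl. With both sets pooled, none of ZAT10, AT3G10930, PRODH1 and OXS3 passed the test (adjusted p from 0.32 to 0.64, limma). The spread behind these pooled p-values includes the difference between the 2 sets.

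Of the 18 dehydration and LEA genes, 7 had a larger response in the line than in WT against each set (0.987% over all genes) and none a smaller one. These counts were 4 and 1 with quantile normalization, 4 and 1 without control replicate 2 of the line, and 3 and 0 without a filter, and the smaller response was that of RD20. The 7 genes were KIN1, RD29A, RD29B, COR15A, COR47, ERD10 and LTI30. In other lists, 4 antenna genes, 3 aquaporins and 3 jasmonate genes responded more positively against each set and none more negatively. For nitrate genes these counts were 2 and 1. The share of 0.987% covers genes of every level and was not matched to the level of a list. KIN1 differed by 0.91 against set 1 (adjusted p = 0.032, limma) and by 1.50 against set 2 (0.0038). With NaCl, it had 884 and 963 FPKM in the line and 1048 and 923 FPKM in WT. Untreated, it had 7.35 and 5.5 FPKM in the line and 13.6 to 24.1 FPKM in the 4 WT libraries, so that the groups were apart only without NaCl. RD29B differed by 1.26 and 1.18, and here the groups were apart in both conditions, with 72.5 and 74 FPKM in the line and 45.7 and 47.5 FPKM in WT with NaCl. With both WT sets pooled, none of the 7 was called (adjusted p from 0.073 to 0.47, limma), in a fit whose spread includes the difference between the sets. RD29A and RD29B were called against each set under every alternative run, and COR47 under all but quantile normalization. KIN1, COR15A, ERD10 and LTI30 each lost a call without single libraries of the line or of WT, and between 3 and 5 of the 18 genes were called against each set without a library of the line, of WT with NaCl or of set 1, and 7 without a library of set 2.

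For 4 genes chosen after their values were seen, ERF105, SZF1, TCH4 and TCH2, the response of the line was near that of WT against set 1 and far from that against set 2. ERF105, an ethylene response factor, fell from 35 and 35.5 FPKM to 4.35 and 5.4 FPKM in the line (log2 fold change -2.63, standard error 0.10, adjusted p = 7.6e-06, limma). Its log2 fold change in WT was -2.57 against set 1 and 1.40 against set 2, where the untreated level was 1.08 and 1.24 FPKM. SZF1 had -1.45 in the line, and -1.35 and 2.11 in WT. TCH4, a wall gene induced by touch, fell from 74.1 and 74.3 FPKM to 20.1 and 21 FPKM in the line (-1.81) and had -2.01 and 1.71 in WT. TCH2, a calmodulin-like touch gene, fell by 1.07 in the line and had -1.24 and 0.48 in WT. TCH3, the third gene of the touch list, rose instead, from 120 and 117 FPKM to 191 and 183 FPKM (0.65, adjusted p = 3e-05, limma), and had 0.31 and 3.62 in WT. For ERF105, SZF1, TCH4 and TCH2 the untreated libraries of the line lay near those of set 1, and the log2 fold change in WT had opposite signs against the 2 sets.

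**Figure D5:**
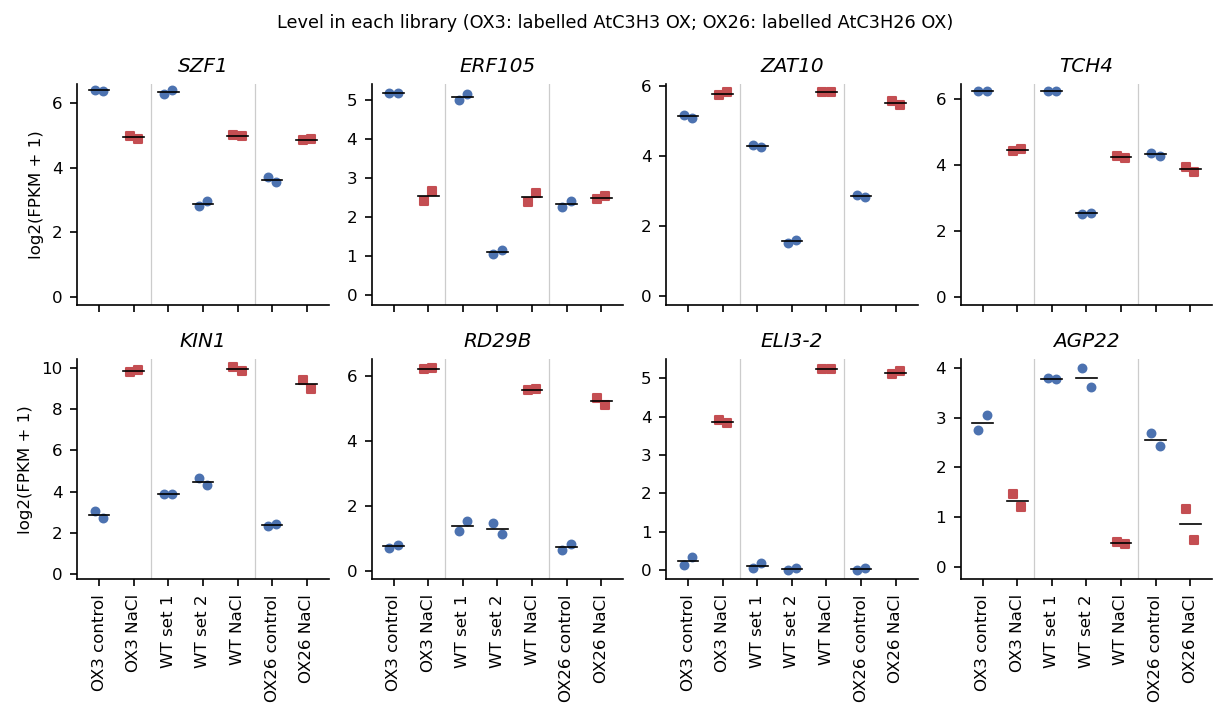
Level of 8 genes, as log2(FPKM + 1), in each of the 14 libraries; points are libraries (circles untreated, squares with NaCl), bars are group means of 2 libraries, and OX3 and OX26 stand for the libraries labelled AtC3H3 OX and AtC3H26 OX. SZF1, ERF105, ZAT10 and TCH4 are high in the untreated libraries of OX3 and WT set 1 and low in WT set 2, while their levels with NaCl lie closer together than those without; ELI3-2 is lower in OX3 with NaCl than in the other NaCl groups.

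The line labelled AtC3H26 OX has control and NaCl libraries of its own. Of 20624 genes, 753 (3.65%) responded more positively in AtC3H3 OX than in AtC3H26 OX and 781 (3.79%) more negatively. These counts fell when any 1 library was left out, and the cause was not tested. They were 323 and 372 without NaCl replicate 1 of AtC3H3 OX, 324 and 399 without NaCl replicate 2, 247 and 293 without control replicate 1 and 318 and 301 without control replicate 2. Without a library of AtC3H26 OX they were 447 and 441 (NaCl replicate 1), 465 and 646 (NaCl replicate 2), 536 and 694 (control replicate 1) and 430 and 494 (control replicate 2).

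Genes of the same kinds were among the negative differences, and ERF5, ERF6, ERF104 and ERF105 were added after their values were seen. ERF105 had 3.82 and 4.33 FPKM in the controls of AtC3H26 OX and 4.52 and 4.76 FPKM with NaCl, and differed by -2.78 on the log2 scale (standard error 0.14, adjusted p = 0.00014, limma). SZF1 rose by 1.24 in AtC3H26 OX and differed by -2.69. ERF104 differed by -2.26, ZAT10 by -2.00, ERF6 by -1.68, ERF5 by -1.66, TCH4 by -1.34 and TCH3 by -1.02. The genes with the largest differences by rule were mostly rows at 0 in a group: trnY, AT2G07684, AT1G08937, and SNOR105 and AT1G35143, both at 0 in the 4 libraries of AtC3H3 OX. The sixth was the antisense RNA AT4G00975, with a difference of -3.52, whose reads cannot be told from those of its sense partner unless strand was used in counting.

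Among the 6 largest positive differences were AT5G19110, AT1G23110, TAT3 and PRX52, beside trnH and rps12. AT5G19110 rose from 1.44 and 1.35 FPKM to 31.1 and 30.7 FPKM in AtC3H3 OX, and from 9.54 and 8.55 FPKM to 31.8 and 33.8 FPKM in AtC3H26 OX, a difference of 1.99 (adjusted p = 0.00014, limma). TAT3, a tyrosine aminotransferase induced by jasmonate, had 6.84 and 7.84 FPKM with NaCl in AtC3H3 OX and 7.72 and 5.9 FPKM in AtC3H26 OX, and the controls had 0.347 and 0.424 FPKM and 4.25 and 4.78 FPKM, a difference of 2.09. PRX52, a peroxidase, rose by 0.97 in AtC3H3 OX and had -1.19 in AtC3H26 OX. AT1G23110 differed by 2.00. For these 4 genes both control libraries of AtC3H26 OX lay above both of AtC3H3 OX, and with NaCl the lines overlapped for TAT3 and AT1G23110.

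The study lists of genes that differed from WT under NaCl were chosen on these NaCl libraries, and their direction against WT is not independent evidence. Within AtC3H3 OX, 7 of 9 genes tested of the list lower than in WT rose with NaCl and 1 fell. ELI3-2, an alcohol dehydrogenase of the defence response, rose from 0.0842 and 0.252 FPKM to 14 and 13.2 FPKM (log2 fold change 3.65), and by 5.13 and 5.21 in WT. DIN11 rose from 1.49 and 2.29 FPKM to 5.02 and 4.69 FPKM (1.03), and by 2.73 and 2.69 in WT. DIN10, a raffinose synthase gene induced in the dark, rose from 7.7 and 7.46 FPKM to 16.2 and 14.9 FPKM (0.95), and had -0.70 against WT set 1 and 1.72 against set 2. AT5G04790 fell from 17.1 and 18.5 FPKM to 3.35 and 3.46 FPKM (-2.09). Of 10 genes of the list higher than in WT, 4 rose and 1 fell, beside 31.4% and 29.9% over all genes. PI, a MADS factor of petals and stamens, had 15.4 and 15.5 FPKM in the controls and 17.2 and 18.2 FPKM with NaCl (0.18, adjusted p = 0.04, limma), and so was present without salt. This call was lost without NaCl replicate 2 (0.14), control replicate 1 (0.14) or control replicate 2 (0.12). CYP83A1, of glucosinolate synthesis, fell by 0.69, and CYP79F1 had 33.2 and 34.2 FPKM and 31.2 and 31.3 FPKM (-0.11, adjusted p = 0.086).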

How the data were processed

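mRNA-Seq of whole seedlings was deposited as 1 table of FPKM values per gene and library. Per the submitters' processing notes, the authors aligned trimmed paired-end reads with TopHat to TAIR10, and the study's methods name Cufflinks for the FPKM values. The methods also name a quantile normalization, but the upper quartiles of the deposited FPKM still differ between libraries (18.6 and 18.7 in the controls and 20.2 in the NaCl libraries of AtC3H3 OX). A value of exactly 0 can be a failed estimate. The strand setting of the quantification is not given in the sources used here. Of the 37980 rows, 98.2% were matched by locus or symbol to 1 RefSeq gene, and 453 rows with a shared or ambiguous name kept their listed name. Values were transformed to log2(FPKM + 1), which understates changes of low genes. Genes with at least 1 FPKM in 2 or more libraries of a comparison were tested with limma 3.58.1 in R 4.3.3 (empirical Bayes with a variance trend, no covariates) and called at a Benjamini-Hochberg adjusted p under 0.05. The differences of responses were contrasts in separate limma fits of the same kind, on the libraries of both responses and with their own filter. The 2 sets of untreated WT libraries are not assigned to a line by the labels, and were used pooled and each alone. FPKM is not a count, so no count model was used, and relative depth was estimated from the lowest values. The study's supplement gives aligned read pairs for the NaCl libraries of AtC3H3 OX and WT but for no other library. The number of fragments behind a value was not derived from them. The fit was tested on simulated data.

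The genes named are members of lists of pathways and markers, the 12 with the largest change in each direction among called genes with at least 5 FPKM in the higher group and groups apart, and the 6 with the largest difference of responses in each direction. Members and lists were chosen with earlier results of these data known. The alternatives were other pseudocounts, filters, scalings, variance models, libraries in the fit, the replicate number as a block and leaving out each library. Python 3 with pandas drew the summaries. The lists of the study were taken from its text.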

Additional observations from a re-analysis of the deposited data

Results flagged for a closer look

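The responses of the libraries labelled AtC3H3 OX and of WT differed, by the test of the difference with limma, against set 1 and against set 2 of the untreated WT libraries for 15 genes described above. More positive in the line were AT1G69140 (1.65 and 3.11 on the log2 scale, set 1 first), AtGGCT2;1 (1.52 and 2.50), AGP22 (1.74 and 1.76), AT3G21460 (1.76 and 1.62), RD29B (1.26 and 1.18), KIN1 (0.91 and 1.50), COR15A (0.57 and 1.41), RD29A (0.50 and 1.30), ERD10 (0.40 and 0.32), LTI30 (0.35 and 0.76) and COR47 (0.33 and 0.43). More negative were ZAT10 (-0.89 and -3.60), AT3G10930 (-1.26 and -2.51), OXS3 (-0.65 and -2.89) and PRODH1 (-0.58 and -3.15). With both sets pooled, only AGP22 and AT3G21460 of these 15 were called (adjusted p = 0.031 and 0.024, limma), and the others had an adjusted p from 0.073 to 0.64. The spread in the pooled fit includes the difference between the 2 sets. KIN1, COR15A, ERD10, LTI30, COR47, AtGGCT2;1, AT3G10930 and OXS3 lost the call against at least 1 set under at least 1 alternative. Both sets of values share the NaCl libraries of the line and of WT and the controls of the line.

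Against AtC3H26 OX, the test of the difference found a more positive response in AtC3H3 OX for PRX52 (2.16), TAT3 (2.09), AT1G23110 (2.00) and AT5G19110 (1.99). It found a more negative one for AT4G00975 (-3.52), ERF105 (-2.78), SZF1 (-2.69), ERF104 (-2.26), ZAT10 (-2.00), ERF6 (-1.68), ERF5 (-1.66), TCH4 (-1.34) and TCH3 (-1.02). What lies behind these differences was not tested.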

How the results depend on the processing

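Within AtC3H3 OX, the counts of genes called higher and lower stayed within 1.5 times of 6275 and 5974 under all alternatives, and with quantile normalization, which moved the median of all genes to -0.07, they were 5378 and 7041. The counts of changes over 2-fold depended on the pseudocount, which damps low genes: with 5 they were 992 and 365, and with 0.1 the lower count was 1370. Of 162 named genes none changed direction where it was called in the main fit or in the alternative. A change of sign in an uncalled gene was not counted. PI, SNRK2.3 and SOS1 lost their calls in at least 1 alternative. For the difference from WT with both sets pooled, 18 and 23 genes were called without a filter, 398 and 173 with set 1 alone, 957 and 1343 with set 2 alone, 2 negative with pseudocount 0.1, and between 0 and 2 positive and 1 and 4 negative without single libraries. Called against each set were 122 positive genes without a filter, and between 48 and 232 positive and 26 and 121 negative without single libraries. For the difference from AtC3H26 OX, 247 to 536 positive and 293 to 694 negative were called without single libraries. Where an alternative changed a count and its construction does not show why, the cause was not tested.

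The labels do not say that a replicate number marks a shared batch or day, and 2 pairs are too few to settle it from the data. The deviations of the same-numbered libraries of AtC3H3 OX correlated at r = 0.118 (0.199 above 5 FPKM), the highest value of all pairs of groups, beside 0.116 between AtC3H26 OX with NaCl and the AtC3H3 OX controls. With the replicate block, 6288 and 5989 genes were called within AtC3H3 OX, 1 and 3 for the pooled difference from WT, 129 positive against each set, and 518 and 594 for the difference from AtC3H26 OX. The number of fragments behind a value was not derived, so the depth that limits low genes shows here only in their standard errors.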
